A study of Mus musculus with 32 samples.

Results

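The comparison described here is spinal cord 3 days after photothrombosis (labelled 3d scPT, 4 arrays) against control spinal cord (labelled Kontrolle scPT, 4 arrays), which are 8 of the 32 arrays of a mouse expression series. All probes with 1 gene symbol were taken, which gives 19505 genes. The series holds male wild-type C57BL/6J mice, 6 to 12 weeks old and 20 to 25 g in weight at the start, and compares photothrombosis of the cerebrum and of the spinal cord at days 1, 3 and 7 with controls of the same tissue, 4 arrays in each of 8 groups. Spinal cord at day 1 (4 arrays) and cerebrum at day 3 with its controls (8 arrays) serve below as further comparisons. No transgene or drug is named for any group. The labels do not say whether controls had surgery, how far from the lesion the tissue was cut, or whether each array came from a separate animal. The p-values therefore measure only the spread between these samples, and precision is limited by 4 arrays a group. Sample titles of each group carry numbers of their own range. If those numbers stand for batches, a batch effect and a group effect cannot be told apart.

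In photothrombosis a dye in the blood is excited by light through the exposed tissue, and the vessels in the beam clot. The ischaemic core that results is entered by neutrophils and then by monocytes from the blood, while resident microglia and astrocytes become reactive and fibroblasts and vessel-associated cells lay down matrix. In bulk tissue, fewer cells of a type and less RNA per cell cannot be told apart.

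Each value given for an array is a log2 value relative to a centre for that gene, so 0 is not absence and levels cannot be compared between genes. Differences are log2 day 3 minus control from a limma fit, with the SE, and n = 4 arrays per group throughout. The SE rests on a spread per gene pooled over all 8 groups, not on the compared arrays alone. The median SD over genes was 0.207 at spinal day 3 and 0.184 in spinal controls, against 0.138 to 0.167 in the other groups. The SE and p-values can therefore understate the spread of the groups compared. The authors centred the day 3 arrays apart from the controls, so the offset between them was rebuilt for each probe, and a gene passed only if its difference exceeded the uncertainty of that offset at an adjusted p under 0.05. Where the offset is known only as a wide range, the range of the difference from control is printed beside it.

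The cord arrays carried the labelled tissue. Of 7 spinal cord markers, 6 lay above the cerebral arrays both at day 3 and in controls (Hoxb8, Hoxb9, Hoxc6, Hoxc8, Slc6a5 and Glra1), Hoxc9 overlapped, and all 5 forebrain markers (Slc17a7, Tbr1, Neurod6, Ddn and Nrgn) lay below. Some arrays stood apart. Day 3 replicate 1 had an array weight of 0.225 and the widest SD over genes of the 8 arrays, 0.73, and control replicate 2 had a weight of 0.491. The mean over 14 skeletal muscle genes was 0.93, 0.37, 0.052 and -0.12 in day 3 replicates 1 to 4 and 3.48, 2.94, 1.12 and 0.22 in control replicates 1 to 4, so controls 1 and 2 carried the most muscle RNA. In control replicate 2 the mean over 18 fibroblast and matrix genes was also the highest of the controls, at 0.80. Its means for Schwann cells, at 1.25, and for choroid plexus and meninges, at -0.089, were likewise the highest of the controls. The Schwann cell mean of day 3 replicates 2 to 4 was lower than that, at 0.87, 0.73 and 0.56. For part of the results that rest on these arrays, values without them are also given below. The list counts against day 1 and between tissues include all arrays.

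In all, 3888 of 19505 genes passed the test, which is 19.9%. Of these, 2007 (10.3%) were higher at day 3 and 1881 (9.64%) were lower. Without day 3 replicate 1 the count was 3500, with spinal controls 3 and 4 only it was 3288, and with both changes 3126. The rises were larger: 815 of the higher genes differed by at least 2-fold and 208 by at least 4-fold, against 280 and 9 of the lower genes. All 4 day 3 arrays lay above all 4 controls in 2212 genes (11.3%) and below them in 2834 genes (14.5%). Among the 2634 probes without 1 gene symbol, 186 were higher and 249 lower.

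The 12 largest rises and falls described next were taken among called genes whose 4 day 3 arrays all lay beyond the 4 controls, without predicted genes and sensory receptors. The largest rise was in Arg1, the arginase of alternatively activated macrophages (Entrez identifier 11846, chromosome 10 from 24915207 to 24927470, GRCm38.p6). Its values were 6.19, 3.49, 5.82 and 7.08 at day 3, against -0.24, -0.57, -0.50 and -0.18 in controls. All day 3 arrays lay far above the controls, although replicate 2 was well below the other 3, and the difference was log2 6.01 ± 0.44 or 64.6-fold (adjusted p = 2.61e-11). Tgm1, a transglutaminase that crosslinks proteins (Entrez identifier 21816, chromosome 14 from 55700009 to 55713921), read 4.56, 3.64, 4.63 and 6.40 at day 3 and -1.44, -1.26, -0.75 and -1.14 in controls, a difference of 5.96 ± 0.44 (adjusted p = 3.18e-11). Lilrb4a, an inhibitory receptor of myeloid cells, read 3.72, 2.68, 3.94 and 4.41 at day 3, against -1.51, -0.57, -1.25 and -1.56 in controls (4.91 ± 0.28, adjusted p = 1.62e-13). The groups were again wide apart for both genes. Serpina3n, a secreted serine protease inhibitor of reactive astrocytes, had the tightest day 3 arrays among the 12 largest rises, with a mean of 3.08 ± 0.27 at day 3 and -1.22 ± 0.53 in controls (SD), and rose 19.7-fold.

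The other large rises were in genes known from several kinds of cell. Lcn2, a secreted siderophore-binding protein, rose by 5.22 ± 0.73 (range 4.66 to 5.79). Selp, the endothelial and platelet P-selectin, rose by 4.93 ± 0.69, and Ms4a6d, a membrane protein of macrophages, by 4.68 ± 0.31. Pbk and Mki67, expressed in dividing cells, are described with the cell cycle. Fn1, the matrix glycoprotein fibronectin, rose by 4.15 ± 0.37 (range 3.62 to 4.69), and Tagln, an actin-binding protein of smooth muscle and myofibroblasts, by 4.38 ± 0.26 (range 3.93 to 4.84). Prg4, a secreted lubricating proteoglycan, read 7.61, 4.01, 5.57 and 4.65 at day 3 and -0.64, 3.66, -1.30 and 1.81 in controls. Its groups came close, because control replicate 2 lay just under the lowest day 3 array, and the rise was 4.58 ± 0.86 (range 3.74 to 5.42, adjusted p = 0.00141). Adjusted p over the 12 largest rises was at most 0.00141.

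The largest falls were smaller in size than the largest rises. Gng8, a G protein gamma subunit (Entrez identifier 14709, chromosome 7 from 16891737 to 16895451), read -0.44, 1.02, 0.76 and 0.055 at day 3, against 2.42, 2.70, 3.01 and 2.51 in controls, a level 4.97-fold lower (-2.31 ± 0.21, adjusted p = 3.29e-09). Hrh3, the presynaptic histamine receptor (Entrez identifier 99296, chromosome 2 from 180099465 to 180104484), read -3.66, -2.83, -2.99 and -3.60 at day 3 and -0.83, -1.48, -0.96 and -0.98 in controls (-2.21 ± 0.15, adjusted p = 1.93e-11). Both genes had groups separated by more than a log2 unit. Tac2, the precursor of neurokinin B, was lower with a difference of -2.14 ± 0.32, Grm3, a metabotropic glutamate receptor of neurons and astrocytes, with -1.92 ± 0.28, and Car14, a membrane carbonic anhydrase, with -2.01 ± 0.27. Fa2h, which hydroxylates the fatty acids of myelin lipids (Entrez identifier 338521, chromosome 8 from 111345138 to 111393821), read -1.09, 0.93, 0.78 and 0.53 at day 3, against 2.35, 2.08, 2.56 and 2.13 in controls (-1.99 ± 0.27, adjusted p = 3.86e-06). Day 3 replicate 1 was by far the lowest array for Fa2h, and the other 3 were also below every control. Without replicate 1 the Fa2h difference was -1.54. Hhip, a hedgehog-binding protein (-1.83 ± 0.27, range -2.12 to -1.55), Lypd6b, a protein of the Ly6 family (-1.74 ± 0.19), and Speer4a (-1.75 ± 0.21) also fell. Speer4a belongs to a family of near-identical copies, so its probe may read several of them.

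The remaining 3 of the 12 largest falls were muscle genes. Myot, a protein of the muscle Z-disc, stood at -1.83 ± 0.33, Cox8b, a cytochrome oxidase subunit of muscle and brown fat, at -1.80 ± 0.33 (range -2.04 to -1.57), and Mb, the oxygen-binding protein myoglobin, at -1.76 ± 0.31. Myot read 0.10, -0.089, -0.16 and -0.11 at day 3, against 3.60, 2.0, 1.07 and 0.41 in controls. Controls 1 and 2, with the most muscle RNA, were the highest for all 3 genes. With controls 3 and 4 only, the differences were -0.80 for Myot, -0.67 for Cox8b and -0.74 for Mb, and Cox8b no longer passed (adjusted p = 0.279).

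**Figure D1:**
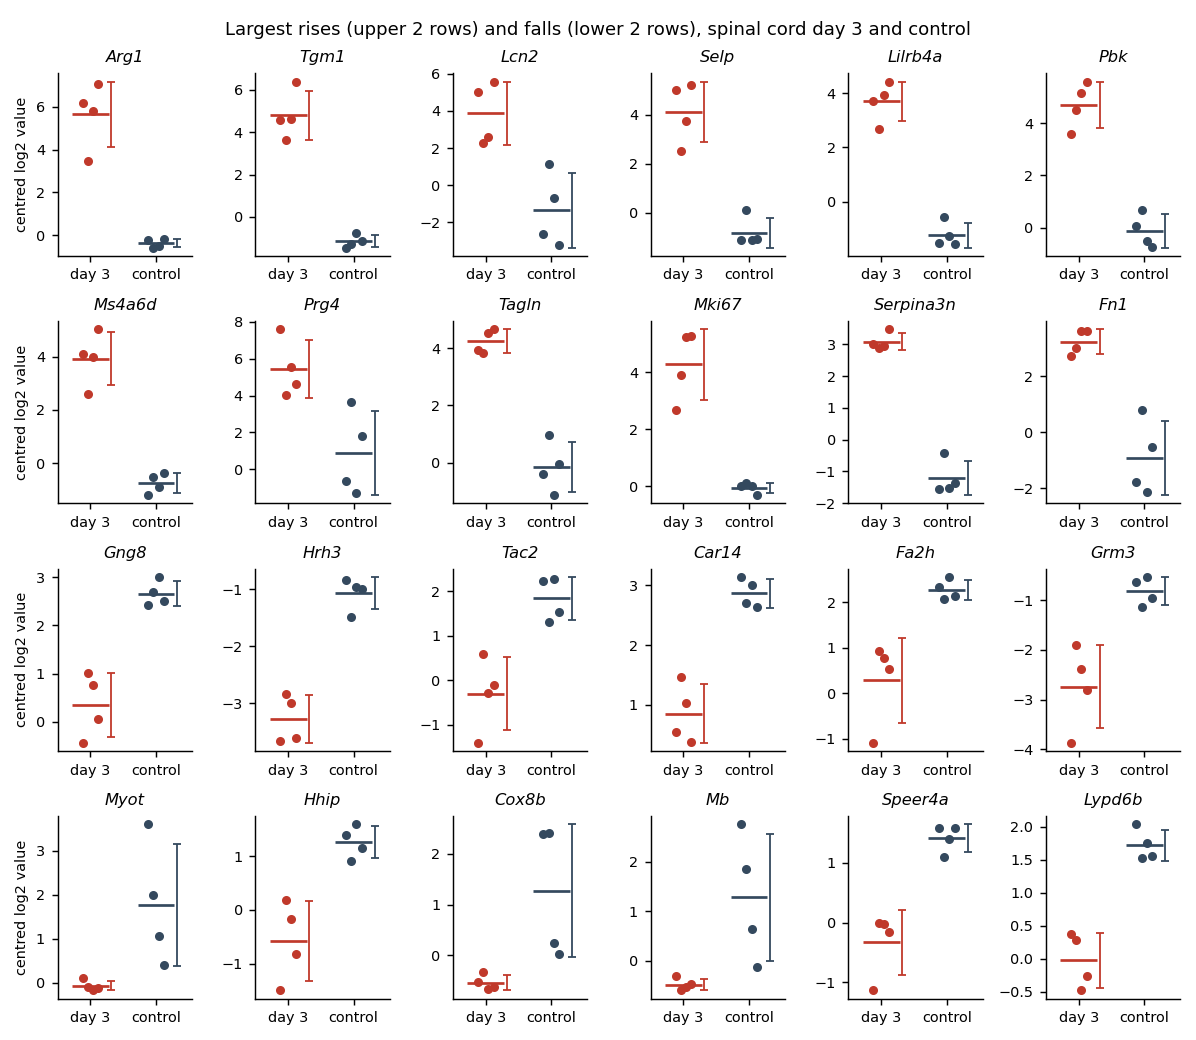
Centred log2 value of each array for the 12 largest rises (upper rows) and 12 largest falls (lower rows), with day 3 left of control, a line at the group mean and a bar of 1 SD (n = 4 each). Each panel has its own axis. Arg1 and Lilrb4a show wide gaps, Prg4 a narrow one, and in Myot, Cox8b and Mb the spread lies in the controls.

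The genes were then read by 37 lists of cell types and processes. These hold 542 genes, of which 498 were measured, and a gene may stand in several lists. The lists were chosen with earlier results of these data known, so a high share of called members may follow from that choice. Some of the largest rises named above, such as Arg1, Tgm1 and Fn1, are also list members. Cell cycle genes had the largest share of higher members of any list. Of the measured members, 23 of 25 were higher and none was lower, with a median difference of 1.5, against -0.0826 over all genes. The same number, 23, was higher without day 3 replicate 1 and, separately, 23 with controls 3 and 4 only. The members that did not pass were E2f1, a transcription factor of S-phase entry, at 0.38, and Ccne1, the cyclin of the G1-to-S transition, at -0.11. Mki67, the nuclear antigen of dividing cells, read 2.68, 3.90, 5.23 and 5.28 at day 3 and 0.0019, 0.10, -0.0019 and -0.32 in controls (4.33 ± 0.36, adjusted p = 2.61e-10). Pbk, a mitotic kinase, read 3.58, 4.52, 5.15 and 5.60 at day 3 and 0.06, 0.69, -0.52 and -0.73 in controls (4.84 ± 0.38, adjusted p = 8.24e-11). For both genes day 3 replicate 1 was the lowest of its group and still lay above every control. Cdk1, the kinase that drives mitotic entry, rose by 3.69 ± 0.35, Plk1, a kinase of mitotic progression, by 2.59 ± 0.27, Bub1, of the spindle checkpoint, by 2.26 ± 0.25, and Top2a, the topoisomerase of dividing cells, by 1.99 ± 0.22. Of the genes of DNA replication, Mcm6 of the replicative helicase rose by 1.57, Pcna, the polymerase clamp, by 1.5, and Rrm2, of nucleotide synthesis, by 0.88.

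Promoters of mitotic genes are known for CCAAT boxes, bound by NF-Y, and for the cell cycle homology region TTTGAA, through which the genes are held silent outside the cycle. The 120 bases before the transcript start used by the RefSeq promoter table (GRCm38.p6) are shown for 4 members that moved together, with the motifs CCAAT and TTTGAA, which share no overlap, in capitals on either strand. A CCAAT on the other strand reads as ATTGG here. The search covered the 250 bases before the start.
Mki67: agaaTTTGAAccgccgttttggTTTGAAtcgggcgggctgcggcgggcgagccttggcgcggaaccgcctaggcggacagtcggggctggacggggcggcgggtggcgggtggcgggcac
Cdk1: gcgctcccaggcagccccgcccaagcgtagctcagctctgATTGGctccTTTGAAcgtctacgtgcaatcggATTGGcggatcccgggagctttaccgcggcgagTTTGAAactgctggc
Plk1: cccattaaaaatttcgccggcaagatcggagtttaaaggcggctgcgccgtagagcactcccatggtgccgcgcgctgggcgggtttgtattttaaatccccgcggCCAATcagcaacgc
Bub1: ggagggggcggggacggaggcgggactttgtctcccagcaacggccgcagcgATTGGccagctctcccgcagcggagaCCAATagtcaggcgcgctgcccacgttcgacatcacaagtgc
These lie at chr7:135716380-135716499 on the minus strand, chr10:69352913-69353032 on the minus strand, chr7:122159315-122159434 on the plus strand and chr2:127831860-127831979 on the minus strand. For Mki67 that start lies inside the annotated gene, whose outermost end is further upstream, so 71 of the 120 bases are within the gene. In the stretches shown, Mki67 has 2 TTTGAA and no CCAAT, Cdk1 has 2 of each, Bub1 has 2 CCAAT and Plk1 has 1. Promoters were found for 22 of the 25 measured members. CCAAT was present in 18 of the 22 (81.8%), against 35% of 19143 promoters, and TTTGAA in 8 (36.4%), against 13.8%. A match is a string of letters and not evidence of binding.

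Monocyte and macrophage genes were the second group to rise nearly as a whole, with 14 of 16 measured members higher and none lower, and a median of 2.04. Their mean over the list was 2.35, 1.5, 2.32 and 3.08 in day 3 replicates 1 to 4, against -0.43, 0.22, -0.53 and -0.26 in controls, with no overlap. Mpeg1, a pore-forming protein of macrophages, read 1.93, 3.17, 3.68 and 4.37 at day 3 and -0.27, 0.079, 0.17 and 0.022 in controls (3.29 ± 0.28, adjusted p = 8.21e-10). Ccr2, the receptor by which inflammatory monocytes leave the marrow and enter tissue, read 1.94, 1.52, 1.88 and 2.94 at day 3 and 0.057, 0.55, -0.21 and 0.30 in controls (1.90 ± 0.21, adjusted p = 2.71e-07). Every day 3 array was above every control for both. Chil3, a chitinase-like protein of macrophages, spread widely, reading 5.53, 0.33, 1.75 and 3.85 at day 3, against -0.085, -0.37, -0.091 and -0.28 in controls (3.07 ± 0.54), and replicate 2 was near the controls. Without day 3 replicate 1 the Chil3 difference was 2.18. Ms4a7, a membrane protein of macrophages, differed by 3.59 ± 0.56 although control replicate 2 overlapped day 3 replicate 1, and Lyz2, the myeloid lysozyme, by 3.17 ± 0.48 (range 2.5 to 3.83) with the same overlap. Ly6c2, a surface antigen of inflammatory monocytes (0.64 ± 0.20, adjusted p = 0.0543), and Cd163, the haemoglobin scavenger receptor (0.35 ± 0.21, adjusted p = 0.479), did not pass. Fn1 and F13a1, named elsewhere for matrix and clotting, are also members of this list.

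Of the 37 list means, that of homeostatic microglia varied most between the day 3 arrays. The mean over its 11 genes was -0.75, 1.08, 0.84 and 0.85 in day 3 replicates 1 to 4, against -0.03, -0.28, -0.049 and -0.13 in controls. Replicate 1 was below every control and the other 3 were above every control. Csf1r, the receptor on which microglial survival depends, was higher (1.56 ± 0.24, adjusted p = 2.12e-05), as were Olfml3, Fcrls, Gpr34 and Selplg, other genes of this list, at 1.52, 1.31, 1.27 and 0.86. Monocytes and macrophages also express Csf1r and Selplg, so their rise cannot be assigned to microglia. P2ry12, the purine receptor by which resting microglia sense ATP, read -0.95, 1.30, 0.29 and 0.056 at day 3 and 0.071, -0.42, -0.14 and 0.10 in controls, overlapped and did not pass (0.27 ± 0.25, adjusted p = 0.692). Siglech (-0.75), Tmem119 (0.41), Sall1 (-0.41), P2ry13 (0.11) and Cx3cr1 (0.77), also microglial identity genes, did not pass either. In the list 5 of 11 were higher and none lower, with a median of 0.77, and 7 higher with a median of 1.31 without replicate 1.

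Activated phagocytic microglia, whose genes macrophages also express, had 10 of 14 members higher and none lower, with a median of 1.23. Lgals3, a lectin of phagocytes, read 2.45, 1.88, 3.49 and 3.79 at day 3 and -0.61, -0.36, -0.73 and -0.69 in controls (3.50 ± 0.25, adjusted p = 2.42e-11). Gpnmb, a glycoprotein of lipid-laden phagocytes, read 0.45, 2.06, 4.37 and 4.88 at day 3, against 0.002, -0.42, -0.30 and -0.15 in controls (3.15 ± 0.57, adjusted p = 0.00014). Gpnmb was far lower in replicate 1 than in the other day 3 arrays, while Lgals3 was not. Tyrobp, the signalling adaptor of Trem2, rose by 2.25 ± 0.22, and Trem2, the lipid-sensing receptor itself, by 1.68 ± 0.33. Replicate 1 lay below every control for Trem2 and the other 3 arrays well above. Apoe (0.13 ± 0.22), Itgax (0.12 ± 0.18), Lpl (-0.27 ± 0.13) and Igf1 (1.30 ± 0.53, range 0.42 to 2.18), also listed there, did not pass.

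Neutrophil genes rose in part. Of 13 measured, 4 were higher: S100a8, a subunit of calprotectin, at 1.86 ± 0.47, Csf3r, the receptor for the granulocyte growth factor, at 1.81 ± 0.19, Mmp8, neutrophil collagenase, at 1.41 ± 0.27, and Il1r2, a decoy receptor, at 1.37 ± 0.41. Among those that did not pass, Mpo, myeloperoxidase, stood at -0.43, Elane, neutrophil elastase, at 0.15, and Camp, Ltf and Ngp, which encode other granule proteins, at -0.28, 0.06 and 0.20. The median was 0.56, and 0.36 without day 3 replicate 1, which had the highest list mean at day 3. None of 10 lymphocyte genes passed, and their median was -0.075. Cd79a, of the B cell receptor, at -0.31 ± 0.11.

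**Figure D2:**
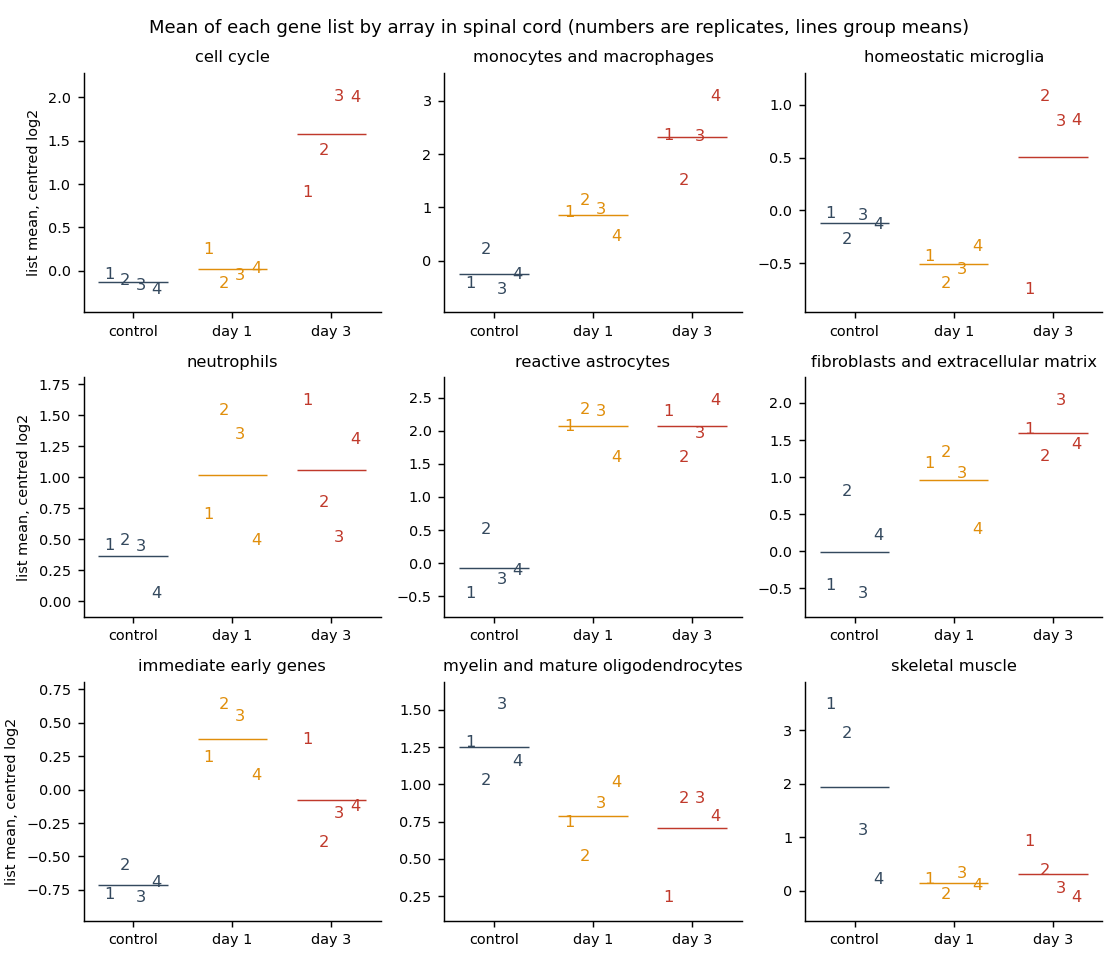
Mean centred log2 value over the measured members of 9 gene lists in each spinal array at control, day 1 and day 3, with the replicate number as the symbol and a line at the group mean. Among the day 3 arrays, replicate 1 is the lowest for homeostatic microglia at -0.75 and the highest for neutrophils at 1.62, and controls 1 and 2 are the highest for skeletal muscle.

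Receptors and mediators of inflammation rose in part. Of 7 genes of Fc receptors and their signalling, 6 were higher, with a median of 2.41, and Fcgrt, the receptor that recycles IgG, stood at 0.24 and did not pass. Fcgr3, an activating receptor for IgG, read 1.97, 1.48, 1.88 and 2.53 at day 3 and -1.30, -0.96, -0.70 and -1.32 in controls, a tight and wide separation (3.04 ± 0.16, adjusted p = 5.2e-14). Among complement genes, 10 of 13 were higher with a median of 1.18. C3ar1, the receptor for the C3a fragment, rose by 3.73 ± 0.28, and the 3 chains of C1q, which starts the classical pathway, by 2.36 (C1qa), 2.28 (C1qb) and 2.17 (C1qc), while Serping1, the C1 inhibitor, stood at 0.39, C2 at 0.52 and C5ar1 at 0.56 and did not pass.

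Among cytokines and chemokines, 10 of 24 were higher and none was lower, with a median of 0.41. Ccl6, a chemokine of myeloid cells, rose by 3.17 ± 0.34, Ccl3, a chemokine of macrophages, by 2.51 ± 0.30, and Ccl2, the ligand of Ccr2, by 1.62 ± 0.27. Il1b, the gene of interleukin 1 beta, read 2.82, 0.61, 1.80 and 5.0 at day 3 and 0.027, -0.33, 0.24 and 0.10 in controls (2.55 ± 0.50, adjusted p = 0.000433), and Il1rn, its natural antagonist, rose by 2.20 ± 0.30. Replicates 1 and 4 were the highest for Il1b and replicate 2 was close to the controls. Il6 was higher at 1.5 ± 0.38, and 0.86 without replicate 1. Tnf at 0.09 ± 0.13, Il10 at -0.29 ± 0.10 and the neutrophil chemokines Cxcl1 at -0.07 ± 0.13 and Cxcl5 at 0.15 ± 0.12 did not pass.

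In the type I interferon response, 6 of 15 were higher, with a median of 0.63. Bst2, which tethers viruses at the membrane, had the largest difference at 2.95 ± 0.31, whereas Mx1, Rsad2, Isg15 and Ifit1 at 0.31, 0.34, 0.63 and 1.11 (range 0.88 to 1.34) did not pass. Without day 3 replicate 1, 3 were higher. Among 8 genes of MHC class II presentation, Ctss, the protease that prepares the groove, at 1.59 ± 0.20, H2-DMa at 0.89 ± 0.15 and its partner H2-DMb1, which help to load peptides, at 1.70 ± 0.28 (range 1.07 to 2.32) were higher. The classical chains H2-Aa, H2-Ab1 and H2-Eb1 at 0.46, 0.64 (range 0.42 to 0.87) and 0.62 (range 0.25 to 0.99), and the master regulator Ciita at -0.05, did not pass.

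Vascular and clotting genes also moved. Selp read 5.0, 2.53, 3.74 and 5.19 at day 3, against -1.13, 0.10, -1.13 and -1.09 in controls (adjusted p = 2.82e-06), and Icam1, another adhesion molecule for leukocytes, rose by 0.65 ± 0.14, while Vcam1 (0.46 ± 0.16) and Sele (0.69 ± 0.24) did not pass. In the leukocyte adhesion list 7 of 11 were higher, with a median of 0.86, or 1.31 without day 3 replicate 1. In coagulation and fibrinolysis, 9 of 17 were higher (median 0.73), among them Plaur, the urokinase receptor, at 2.65 ± 0.39 (range 2.5 to 2.79), Thbd, the anticoagulant thrombomodulin, at 1.99 ± 0.36, Tfpi, the inhibitor of the tissue factor pathway, at 2.12 ± 0.46, and F3, tissue factor, at 0.98 ± 0.18. The 3 fibrinogen chains, made mainly in liver, did not pass (Fga -0.16, Fgb 0.20 and Fgg 0.01).

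Endothelial genes had 6 higher and 1 lower of 16, with a median of 0.33. Cdh5, the cadherin of endothelial junctions, read 2.5, 1.49, 2.07 and 1.90 at day 3 and -0.25, 0.57, -0.65 and 0.048 in controls (2.06 ± 0.23, adjusted p = 1.22e-07), and Cldn5, the claudin of the barrier, rose by 1.54 ± 0.18. Slco1a4, a transporter of the blood-brain barrier, was lower (-0.98 ± 0.26, adjusted p = 0.0117). Pericyte and smooth muscle genes had 4 higher and 0 lower of 12 and a median of 0.0052. The 4 that rose were Tagln, Anpep (2.88, range 2.52 to 3.23), Pdgfrb (1.23, range 0.86 to 1.6) and Acta2 (1.20), of which fibroblasts and myofibroblasts also express Tagln, Pdgfrb and Acta2. Rgs5, Kcnj8, Abcc9 and Notch3, more restricted to mural cells, at -0.22, 0.13, -0.11 and 0.08, did not pass.

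In the list of fibroblasts and extracellular matrix 10 of 18 were higher and none lower, with a median of 1.37. Tnc, the injury-induced glycoprotein tenascin C, read 4.05, 2.43, 3.57 and 3.48 at day 3 and -0.70, -0.38, -0.65 and -0.72 in controls (3.99 ± 0.29, adjusted p = 2.42e-11). Thbs1, thrombospondin 1, rose by 3.94 ± 0.36, Postn, periostin, by 2.25 ± 0.39, and Col3a1, the collagen of early scars, by 2.04 ± 0.40 (range 1.86 to 2.23). Col1a1 and Col1a2, the main collagen chains of mature scars, at 0.53 and 0.22, and the basement membrane collagens Col4a1 and Col4a2, at 0.23 and 0.30, did not pass. Control replicate 2 was the highest control for all 10 higher members, and without it 10 were higher with a median of 1.59. Among metalloproteinases and their inhibitors, 11 of 17 were higher (median 1.07), with Mmp12, the macrophage elastase, at 3.11 ± 0.39, Mmp3, stromelysin 1, at 3.08 ± 0.70 and Timp1, the inducible inhibitor, at 3.85 ± 0.41. Mmp9, the gelatinase studied in barrier breakdown, did not pass (0.52 ± 0.27, adjusted p = 0.301).

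Genes of reactive astrocytes, several of which other cells also express, had 15 of 20 higher and none lower, and a median of 1.89. Nes, the filament protein nestin, read 2.07, 1.24, 1.92 and 1.95 at day 3 and -0.051, 0.037, -0.14 and -0.16 in controls (1.87 ± 0.15, adjusted p = 2.59e-10), and Vim, vimentin, rose by 2.18 ± 0.18 (range 1.98 to 2.37). Cp, the ferroxidase ceruloplasmin, rose by 3.22 ± 0.44, Osmr, the oncostatin M receptor, by 1.73 ± 0.20 (range 1.48 to 1.97), and S1pr3, a receptor for sphingosine phosphate, by 1.91 ± 0.31. Gfap, the defining filament of astrocytes, did not pass. It read -0.39, 1.09, 1.31 and 1.51 at day 3, against 0.25, -0.19, 0.55 and -0.048 in controls (0.74 ± 0.26, adjusted p = 0.0779), with replicate 1 below every control and the other 3 above every control, and the difference was 1.16 without replicate 1.

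Homeostatic astrocyte genes had 1 higher and 3 lower of 14. Ntsr2, a neurotensin receptor of astrocytes, read -1.82, -0.53, -1.13 and -1.56 at day 3 and 0.73, 0.22, 0.75 and 0.016 in controls (-1.69 ± 0.21, adjusted p = 1.46e-06), and the bicarbonate transporter Slc4a4 (-0.63 ± 0.17) and the glycolytic enzyme Aldoc (-0.45 ± 0.11) were lower. Aldh1l1, a folate enzyme used as a pan-astrocyte marker, was higher (0.76 ± 0.14, adjusted p = 0.00149). The median was -0.36, and -0.07 with 2 higher and 1 lower without day 3 replicate 1.

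Genes of lipid handling had 8 higher and 0 lower of 14, with a median of 0.84. Plin2, the coat of lipid droplets, rose by 2.80 ± 0.27, Ch25h, which makes 25-hydroxycholesterol, by 2.69 ± 0.26, Abca1, the cholesterol exporter, by 2.14 ± 0.23, and Msr1, a scavenger receptor, by 2.03 ± 0.25. In cholesterol synthesis, 3 of 14 genes were lower and none was higher (median -0.29), with Dhcr7 at -0.75 ± 0.12, Sc5d at -0.57 ± 0.09 and Insig1, a feedback regulator, at -0.89 ± 0.20. Among 21 genes of heme, iron and oxidative stress, 8 were higher and 2 lower. Hmox1, the enzyme that degrades heme, read 3.86, 0.93, 3.17 and 3.17 at day 3 and -0.86, -0.44, -0.22 and -0.92 in controls (3.39 ± 0.37, adjusted p = 4.63e-08), Ftl1, the ferritin light chain, rose by 2.08 ± 0.19 and Slc7a11, the cystine importer, by 2.02 ± 0.37 (range 1.82 to 2.22). The median of the list was 0.48, and 0.19 without day 3 replicate 1. Hypoxia and glycolysis genes had 4 higher and 2 lower of 16: Hmox1, Adm, adrenomedullin (2.53, range 2.29 to 2.78), the hexokinase Hk2 (2.13) and the lactate dehydrogenase Ldha (0.98) were higher, Pgk1 (-0.50) and Bnip3 (-0.53) were lower, and Vegfa, the vascular growth factor, stood at -0.41 ± 0.16 and did not pass.

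Immediate early genes, which code mostly for transcription factors, rose in part. Atf3, which injured neurons and glia induce, read 2.19, 1.68, 2.11 and 1.77 at day 3 and -1.08, -0.02, -0.96 and -0.86 in controls (2.66 ± 0.23, adjusted p = 8.21e-10). Junb rose by 2.32 ± 0.23, the phosphatase Dusp1 by 1.83 ± 0.39, Fosl2 by 1.41 ± 0.21 and Fos by 1.27 ± 0.16, while Npas4, an activity-dependent factor of neurons, was lower (-0.60 ± 0.16), and Egr1 (0.25 ± 0.30, range -0.71 to 1.21) and Arc (-0.39 ± 0.23) did not pass. The list had 5 higher and 1 lower of 18, a median of 0.41, and 0.23 without day 3 replicate 1. Of 16 axon injury and regeneration genes, 6 were higher and 2 lower. Gal, the peptide galanin, at 1.21 ± 0.33, Klf6, a regeneration-associated factor, at 1.40 ± 0.19, and Gap43, of growth cones, at 0.60 ± 0.10 were higher. Npy, neuropeptide Y (-1.26 ± 0.24), and the microtubule regulator Stmn4 (-1.0 ± 0.19) were lower, and Sprr1a (-0.21 ± 0.17) and Sox11 (0.10 ± 0.12) did not pass.

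Pan-neuronal genes had 2 higher and 5 lower of 16, with a median of -0.42. Thy1, a surface glycoprotein of neurons, read -0.42, -0.68, -0.79 and -1.13 at day 3 and 0.51, 0.42, 0.37 and 0.29 in controls (-1.15 ± 0.13, adjusted p = 3.45e-07). Rbfox3, which encodes the neuronal nuclear antigen NeuN, fell with a difference of -0.92 ± 0.16, and the synaptic vesicle genes Syt1, Syp and Snap25 with -0.84, -0.62 and -0.59. All 4 day 3 arrays lay below all 4 controls for these 5 genes and for Map2 (-0.38) and Nefm (-0.48), which did not pass. That made 7 of the 16 members, against 14.5% of all genes. Tubb3, a tubulin of neurons and growing axons, was higher (0.63 ± 0.18), as was Gap43. In glycinergic and GABAergic transmission, 3 of 11 genes were lower and none was higher (median -0.75, range -0.76 to -0.43 over the offset): Gad1, which makes GABA, at -1.07 ± 0.25, Glrb, the beta subunit of the glycine receptor, at -1.0 ± 0.16, and Glra2 at -0.76 ± 0.18. Slc6a5, the neuronal glycine transporter, read 1.75, 1.89, 1.46 and 1.58 at day 3 and 3.00, 2.32, 2.72 and 2.45 in controls without overlap, yet did not pass because its offset is known only as a range (-0.95 ± 0.21, range -1.81 to -0.10). Of 10 motor and cholinergic genes only Chodl, a marker of fast motor neurons, passed (-1.58 ± 0.23, adjusted p = 1.64e-05), with Chat, choline acetyltransferase, at -0.19 ± 0.15 (range -0.34 to -0.03). That is 10% of the list lower, near the 9.64% of all genes.

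Many myelin genes have wide offset ranges, and 3 passed against control at day 3. Of 18 measured, 2 were lower, Fa2h and Opalin, a membrane protein of mature oligodendrocytes (-0.93 ± 0.25, adjusted p = 0.0169), 1 was higher, Trf, transferrin (0.74 ± 0.19, adjusted p = 0.0155), and 15 did not pass. These shares of 11.1% lower and 5.56% higher stand against 9.64% and 10.3% of all genes. The median difference was -0.48, with -1.0 to 0.012 over the range of the offset. The count of lower genes turned on the offset: it was 14 with the offset at the low end of its range, 2 at the high end and 10 on the values as deposited. Mbp, myelin basic protein, read 0.71, 0.84, 0.69 and 0.60 at day 3, against 1.27, 1.13, 1.29 and 1.12 in controls, with no overlap at the middle of its offset range, and its difference was -0.49 ± 0.11 (range -1.01 to 0.03, adjusted p = 1). Mog, on the outer face of myelin, stood at -0.70 ± 0.23 (range -1.49 to 0.10). Of 11 precursor genes, C1ql1 was lower (-1.05 ± 0.14) and Vcan, a proteoglycan that other cells also make, was higher (0.82 ± 0.14), while Cspg4, the NG2 proteoglycan, at 0.29 ± 0.19 and Olig2 at -0.49 ± 0.18 (range -0.75 to -0.23) did not pass. The precursor list had 9.09% higher and 9.09% lower, near the 10.3% and 9.64% of all genes. The precursor median was -0.39, and -0.038 without day 3 replicate 1.

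Motile cilia are a feature of the ependyma, the lining of the central canal. Of their 14 genes, 6 were lower and none was higher, with a median of -0.54. Ccdc153, a ciliary gene, read -1.77, -0.94, -1.12 and -0.47 at day 3 and 0.24, 0.0024, 0.44 and 0.37 in controls (-1.34 ± 0.19, adjusted p = 1.22e-05), and Tmem212 stood at -0.88 ± 0.18. Ttr, transthyretin of the choroid plexus, was lower (-1.32 ± 0.23, adjusted p = 0.000142), while the other choroid plexus genes Kl, Folr1 and Otx2 at -0.11, -0.40 and -0.31 did not pass.

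Skeletal muscle genes had 0 higher and 13 lower of 14 and a median of -1.57, the lowest of the 37 lists. With controls 3 and 4 only, 2 were lower and the median was -0.29. Myh4, a myosin of fast fibres, read 4.74, 1.44, 1.0 and 0.41 at day 3, against 7.73, 8.04, 4.15 and 0.93 in controls. Of the lists not yet given, Schwann cells had 1 higher and 0 lower of 9 (median 0.32, or 0.15 with none higher without day 3 replicate 1), growth factors acting on oligodendroglia 2 higher and 0 lower of 11 (median 0.25), and oxidative phosphorylation 2 higher and 2 lower of 15 (median -0.015). Choroid plexus and meninges had 2 higher and 1 lower of 12 (median -0.078), and none of 3 red blood cell genes passed (median -0.18, or -0.30 without day 3 replicate 1). Over all genes 10.3% were higher and 9.64% lower. Shares near these were 11.1% higher for Schwann cells and 13.3% each way for oxidative phosphorylation. For choroid plexus and meninges they were 16.7% higher and 8.33% lower.

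**Figure D3:**
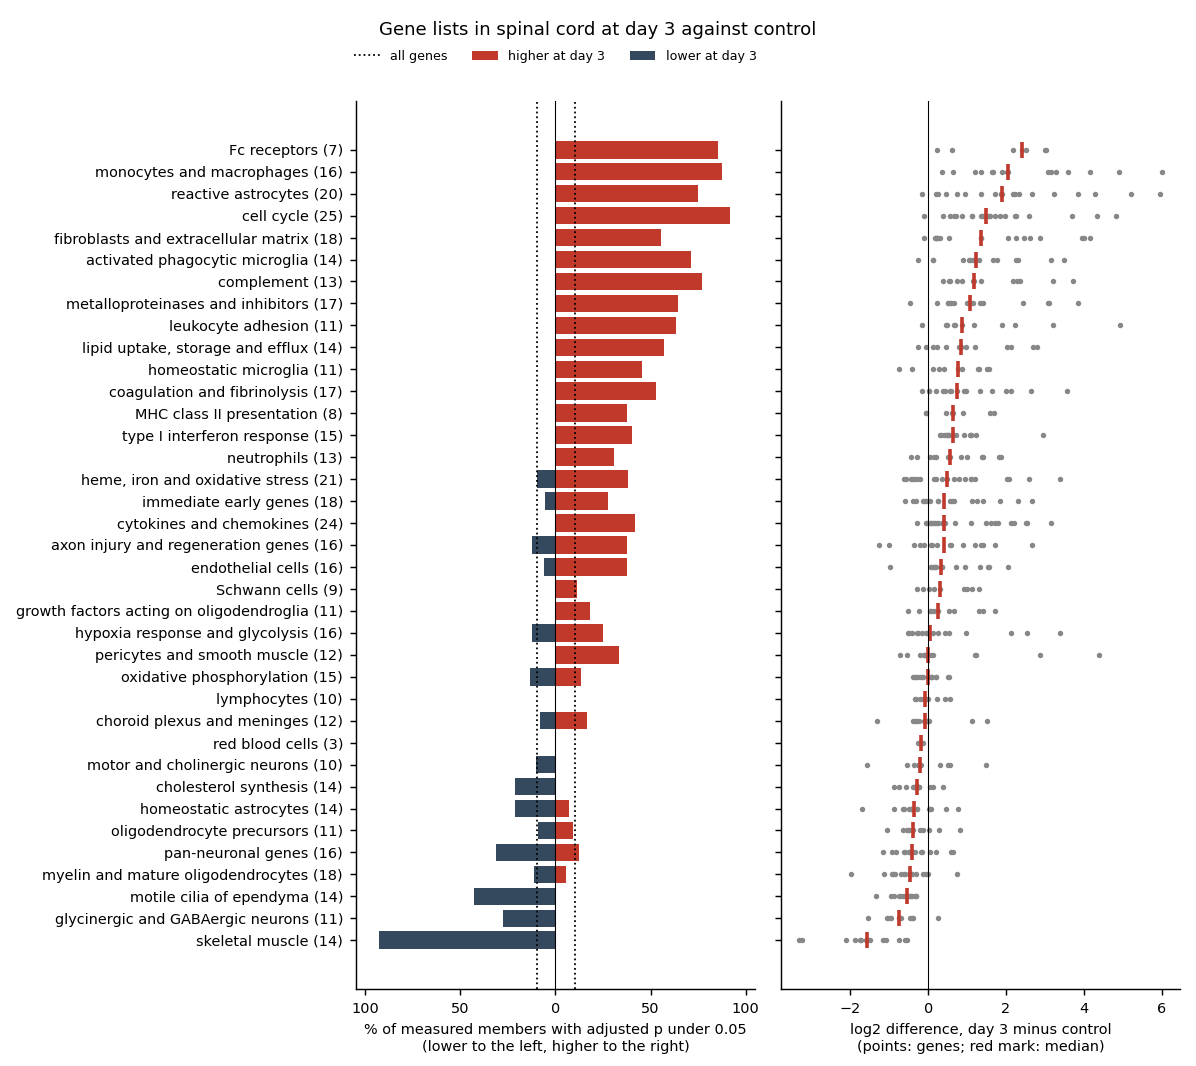
Share of the measured members of 37 gene lists that were higher or lower at day 3 (left, members measured in brackets, dotted lines at the 10.3% and 9.64% of all genes) and the log2 difference of each member, day 3 minus control, with the median marked (right). Cell cycle, monocytes and macrophages and Fc receptors lie at the upper end, skeletal muscle at the lower end.

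Day 3 was then set against day 1 of the spinal cord, to ask which changes differ between the times. These values share the day 3 arrays with the comparison above. Of 19505 genes, 2321 passed (11.9%), 1337 higher (6.85%) and 984 lower (5.04%) at day 3. The largest rises were Pbk (4.85 ± 0.38), Mki67 (4.34 ± 0.36), Ms4a7 (3.64 ± 0.56), Mpeg1 (3.51 ± 0.28) and Cdk1 (3.32 ± 0.35), with adjusted p at most 5.35e-05. Mki67 read 0.0019, 0.10, -0.0019 and -0.32 in controls, 0.57, -0.31, -0.26 and -0.29 at day 1 and 2.68, 3.90, 5.23 and 5.28 at day 3, so day 1 overlapped control and day 3 did not. In the cell cycle list, 22 higher and 0 lower of 25 passed against day 1, with a median of 1.14, against -0.0922 over all genes.

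Part of the microglial genes were also higher at day 3 than at day 1. P2ry12 read 0.071, -0.42, -0.14 and 0.10 in controls, -1.93, -2.59, -2.45 and -2.35 at day 1 and -0.95, 1.30, 0.29 and 0.056 at day 3, and exceeded day 1 by 2.5 ± 0.25 (adjusted p = 1.16e-07). For P2ry12 all 4 day 3 arrays lay above all day 1 arrays, replicate 1 being the nearest. The mean over the homeostatic list was -0.44, -0.70, -0.56 and -0.34 at day 1, so day 3 replicate 1, at -0.75, lay below every day 1 array while the other 3 lay above. The list of homeostatic microglia had 6 higher and 0 lower of 11 against day 1 (median 0.97), with Gpr34 at 2.05 ± 0.34 and Siglech at 1.06 ± 0.30. In monocytes and macrophages 9 higher and 0 lower of 16 passed (median 1.28), Ccr2 being 2.08 ± 0.21 above day 1 and Arg1 2.82 ± 0.44. Arg1 read -0.24, -0.57, -0.50 and -0.18 in controls, 3.28, 3.61, 2.89 and 1.5 at day 1 and 6.19, 3.49, 5.82 and 7.08 at day 3, with day 1 between the others except that day 3 replicate 2 fell within the range of day 1.

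Other genes were lower at day 3 than at day 1 or did not pass. Il11, a cytokine of the interleukin 6 family, read 1.27, -0.028, 0.38 and 0.19 at day 3, against 2.33, 3.30, 2.83 and 0.36 at day 1, a difference of -1.75 ± 0.34 (adjusted p = 0.00117). Itih3, an acute phase protein that binds hyaluronan (-1.88 ± 0.29), Lpo, lactoperoxidase (-1.64 ± 0.23), Il33, a nuclear alarmin of glia (-1.46 ± 0.19), and Gadd45b, a stress-response gene (-1.42 ± 0.41), were the other 4 of the 5 largest falls. Lif (-1.0 ± 0.17), Osm (-0.63 ± 0.14) and Fos (-0.75 ± 0.16) were likewise lower than at day 1. Among reactive astrocyte genes 0 higher and 1 lower of 20 passed, with a median of -0.027, and in the cytokine list 1 higher and 2 lower of 24 (median -0.29). With quantile normalisation the counts against day 1 were 15 higher and none lower for the cell cycle (median 0.82), 5 higher and 1 lower for monocytes and macrophages (median 0.76), none higher and 4 lower for cytokines (median -0.44) and none higher and 4 lower for reactive astrocytes (median -0.40). Timp1 (-0.02 ± 0.41), Lcn2 (-0.12 ± 0.73) and Selp (0.18 ± 0.69) did not pass against day 1.

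The spinal response at day 3 was also set against the cerebral response at day 3, to ask which changes differ between the tissues. Here the difference tested is spinal day 3 minus spinal control, less cerebral day 3 minus cerebral control. The offset drops out of it, so it was tested against 0, and it shares the spinal arrays with the comparison above. Of 19505 genes, 1808 passed (9.27%), 796 with a higher (4.08%) and 1012 with a lower (5.19%) spinal response. The largest positive differences were Arg1 (3.56 ± 0.62, adjusted p = 0.000484), Saa3, an acute phase protein (3.47 ± 0.73), Chil3 (3.23 ± 0.76), Lbp, which presents bacterial lipid to its receptor (3.05 ± 0.80), and Tagln (3.01 ± 0.37). With quantile normalisation the Arg1 difference was 1.90 and did not pass (adjusted p = 0.0652). For Arg1 the spinal difference from control was 6.01 and the cerebral 2.46, and for Chil3 3.07 in the cord and -0.16 in the cerebrum. Saa3 read 4.17, 1.08, 2.29 and 5.87 at spinal day 3, against -0.10, -0.61, -0.38 and -0.26 in spinal controls, with replicate 2 the nearest to the controls.

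The largest negative differences included muscle genes. Atp2a1, the calcium pump of fast muscle, stood at -4.19 ± 1.08, Myh4 at -3.90 ± 1.24 and Myh8, a developmental myosin, at -3.63 ± 1.01. Myh4 lost the call in 16 of 23 alternatives, and with spinal controls 3 and 4 only none of these 3 passed (Atp2a1 -2.02, adjusted p = 0.143, Myh4 -1.23, adjusted p = 0.451, Myh8 -1.34, adjusted p = 0.225). The other 2 were Glra1, a subunit of the glycine receptor (-3.93 ± 0.39, adjusted p = 6.1e-07), and Ebf3, a transcription factor of spinal neurons (-3.17 ± 0.40, adjusted p = 2.59e-05). For Glra1 the cord differed from its control by -1.55 (range -3.14 to 0.04), which did not pass. The cerebrum differed from its own by 2.38 at the middle of the offset range. The same offset enters the cerebral value, which is thus uncertain by 1.59 on either side. How the Glra1 difference divides between the tissues therefore cannot be told. For Ebf3 the cord stood at -1.05 (range -2.55 to 0.46), which did not pass either, and the cerebrum at 2.12.

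Myelin genes separated the tissues, with 0 higher and 13 lower of 18 passing and a median difference of -1.20, against -0.015 over all genes. At the middle of the offset range the myelin median against control was -0.48 in the cord and 0.69 in the cerebrum. The cord median ran from -1.0 to 0.012 over that range, and the same offset enters the cerebral median. How the difference divides between the tissues therefore cannot be told, and it is not a measure of loss in the cord alone. Klk6, an oligodendrocyte protease (-2.69 ± 0.38), Fa2h (-1.97 ± 0.39), Ermn, of the myelin cytoskeleton (-1.82 ± 0.25), Mog (-1.43 ± 0.33) and Mbp (-1.20 ± 0.16, adjusted p = 2.81e-05) were among the 13. Astrocyte genes divided: Gfap was -2.63 ± 0.37 (adjusted p = 3.95e-05), with 0.74 in the cord and 3.37 in the cerebrum, whereas Timp1 was 2.91 ± 0.58 and Nes 1.11 ± 0.21. Homeostatic astrocytes had 0 higher and 7 lower of 14 (median -0.87), among them Kcnj10, the potassium channel that buffers neuronal activity (-1.26 ± 0.30), and Aqp4, the water channel of astrocyte endfeet (-1.57 ± 0.51, adjusted p = 0.0466). Motile cilia genes had 0 higher and 8 lower of 14 (median -0.72) and precursor genes 0 higher and 4 lower of 11 (median -0.66). In these lists too the cerebral median lay above its control at the middle of the offset range. For homeostatic astrocytes the median against control was -0.36 in the cord and 0.46 in the cerebrum. For motile cilia it was -0.54 and 0.27, and for precursors -0.39 and 0.37. Without day 3 replicate 1 the cord medians were -0.07 for homeostatic astrocytes, -0.44 for motile cilia and -0.038 for precursors. The cerebral differences from control were not tested.

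On the other side, monocytes and macrophages had 8 higher and 0 lower of 16 (median 1.14), with Ccr2 at 1.43 ± 0.30 and F13a1, the coagulation transglutaminase of monocytes, at 1.64 ± 0.32. Immediate early genes had 9 higher and 0 lower of 18 (median 0.82), led by Dusp1 (2.45 ± 0.56), Egr2 (2.25 ± 0.61) and Junb (2.01 ± 0.32). The fibroblast and matrix list had 5 higher and 1 lower of 18 (median 1.18), with Fn1, Thbs1 and Postn at 2.19, 2.08 and 1.96 above 0 and Sparc, a matrix-binding glycoprotein, at -0.87. Cell cycle genes had 6 higher and 0 lower of 25 (median 0.66), and Mki67 (1.34 ± 0.51, adjusted p = 0.0942) did not pass. Homeostatic microglia had 0 higher and 0 lower of 11 (median -0.023), and P2ry12 stood at 0.03 ± 0.35. Some of these counts turned on the scaling of the arrays. With quantile normalisation, monocytes and macrophages had 2 higher and 1 lower (median 0.35), the matrix list 0 higher and 1 lower (median 0.33), the cell cycle 0 higher and 1 lower (median -0.11) and homeostatic microglia 0 higher and 3 lower (median -0.74). Immediate early genes then had 10 higher and none lower (median 0.99), and myelin genes 15 lower and none higher (median -1.24).

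**Figure D4:**
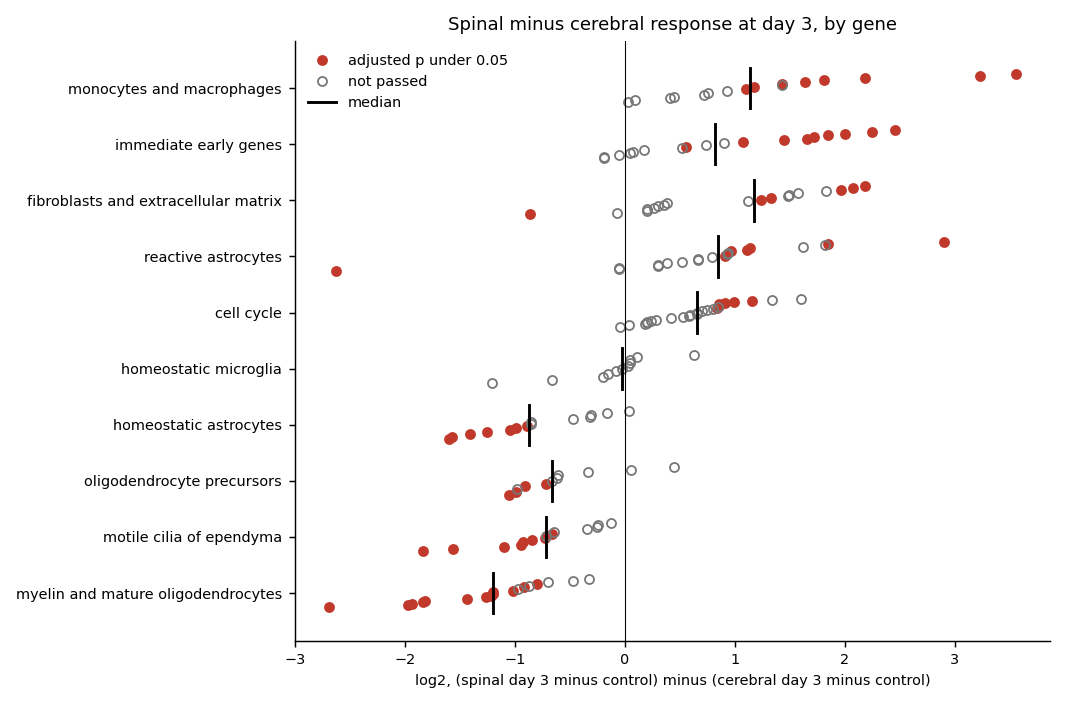
Spinal minus cerebral response at day 3 on the log2 scale for each measured gene of 10 lists, filled where the adjusted p is under 0.05, with the median as a black line. Arg1 at 3.56 is the highest point of the monocyte and macrophage list, Gfap at -2.63 lies apart from the other reactive astrocyte genes, and 13 of 18 myelin genes are filled to the left of 0.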

How the data were processed

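RNA of snap-frozen mouse tissue was extracted with TRIzol and 10 ng was biotin-labelled for one-colour arrays, per the labels' protocols. The authors deposited 1 table of log2 values for all 32 arrays, for which no source used here gives the log base or the centring; base 2 is inferred from the range of the values. The values themselves show that each probe was centred on a median of 0 in 3 parts: controls with day 1, and day 3 and day 7 each apart. For day 3, the part was taken to be its 8 arrays centred together with the 8 controls in a pass of their own. Of 5646 probes on which this could be tested, 86.8% matched. The size of the mismatch in the others set the allowance given below. In rebuilding the offset, a median within 1e-05 was taken as 0. For each probe the offset that places the 8 day 3 arrays beside the 8 controls was rebuilt. It was a single value for 78.1% of probes and a range for the others, whose middle was used.

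Of 22206 probes, 19572 had 1 gene symbol, and the values of the 55 genes with several probes were averaged, which gave 19505 genes. Coordinates and promoters are from RefSeq (GRCm38.p6). limma 3.58.1 in R 4.3.3 fitted 8 group means over all 32 arrays. Differences from control and from day 1 were tested against a bound per gene, the width of its offset on either side plus an allowance of 0.162. Spinal minus cerebral responses do not depend on the offset and were compared with 0. All tests were two-sided. P-values were adjusted by Benjamini-Hochberg over 19505 genes, with a threshold of 0.05. The median residual SD was 0.185.

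Named genes are the 12 largest called rises and falls with groups that do not overlap, and the 5 largest called differences each way between tissues and between days, passing over predicted genes and sensory receptors. List members were named to show the range of each list. The members and lists were chosen with earlier results of these data known. In simulated data with 200 changed genes, the test against control made 151 calls, of which 2 were false, and recovered 10%, 92%, 96% and 100% of changes of log2 0.5, 1, 2 and 3. The test between tissues made 145 calls, 5 of them false. The simulated noise was independent and normal, with the same SD for a gene in every group and no array that stood apart. Cerebral day 3 was set to its control, and far fewer genes were changed than were called in the data. These rates therefore need not hold for the real arrays.

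Alternatives were the deposited values, an exact offset, quantile and 75th percentile scaling, array weights, only the compared groups, 1 probe per gene, a robust prior, leaving out each array, spinal controls 3 and 4 only, and, chosen after seeing the data, both ends of the offset range and controls 3 and 4 without day 3 replicate 1.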

Additional observations from a re-analysis of the deposited data

Results flagged for a closer look

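Among 122 groups of 4 arrays checked for 1 array far from the others (named genes and list means), 8 held one, and chance marks about 1 in 20. Spinal day 3 replicate 1 was such an array for the homeostatic microglia mean, at -0.7453 with the nearest array at 0.8433, for the oligodendrocyte precursor mean, at -0.8425 with the nearest at 0.258, and for Speer4a, at -1.1398 with the nearest at -0.1544. Control replicate 2 was such an array for Selp, at 0.1019 with the nearest at -1.0877, for the endothelial mean, at 0.3918 with the nearest at 0.1155, for the interferon mean, at 0.0882 with the nearest at -0.1334, and for the Fc receptor mean, at -0.254 with the nearest at -0.4556. For the neutrophil mean it was control replicate 4, at 0.0644 with the nearest at 0.4429. Why these arrays stood apart was not tested.

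Of the 24 largest rises and falls, 16 differed between the spinal and the cerebral response at day 3 in the limma test of the difference itself, against 9.27% of all genes. These 24 were chosen for a large spinal difference from control, which enters that test through the same arrays, so a high count follows from the choice. The spinal response was higher for Arg1 (3.56, adjusted p = 0.000484), Tagln (3.01, adjusted p = 2.44e-05), Fn1 (2.19, adjusted p = 0.00655), Ms4a6d (2.11, adjusted p = 0.00257) and Lilrb4a (1.81, adjusted p = 0.00346). It was lower for Gng8 (-2.22, adjusted p = 3.13e-05), Fa2h (-1.97, adjusted p = 0.00146), Tac2 (-1.91, adjusted p = 0.00695), Car14 (-1.90, adjusted p = 0.00193), Hhip (-1.86, adjusted p = 0.00193), Hrh3 (-1.64, adjusted p = 2.61e-05), Grm3 (-1.56, adjusted p = 0.0106), Speer4a (-1.45, adjusted p = 0.00176) and Lypd6b (-1.09, adjusted p = 0.00927). It was also lower for the muscle genes Myot (-1.70, adjusted p = 0.0172) and Mb (-1.54, adjusted p = 0.0213), which rest on spinal controls 1 and 2.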

How the results depend on the processing

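Of the 3888 genes called between day 3 and control (2007 higher, 1881 lower), the count was 6250 on the values as deposited (2919 higher, 3331 lower), 7470 with the offset taken as exact (3220 and 4250), 2342 with quantile normalisation (1309 and 1033) and 2121 with only the compared groups (1197 and 924). Between day 3 and day 1, 2321 genes (1337 higher, 984 lower) became 6895 with an exact offset, 767 with quantile normalisation (520 higher, 247 lower) and 592 with only the compared groups. Between tissues, 1808 genes (796 higher, 1012 lower) became 955 with only the compared groups, and the split was 626 higher and 1419 lower with 75th percentile scaling. Leaving out 1 array gave 3147 to 4246 calls against control, 1393 to 2395 between tissues and 1485 to 2712 against day 1, the lowest of the last being without day 3 replicate 3 (1485) and without day 1 replicate 4 (1493). An exact offset drops the bound. With only the compared groups there are fewer arrays, and the spread is also taken from those groups alone. The median SD was 0.207 at spinal day 3 and 0.184 in spinal controls, the widest of the 8 groups. Which of these lowered the counts, and the cause of the other shifts, was not tested. Scaling moved the median of all genes by less than 0.1. Of 870 pairs of a named call and an alternative, 837 kept the call, 33 lost it and 0 turned direction. Against control Cox8b lost it in 3 (adjusted p up to 0.311) and Myot in 1 (up to 0.0564). Between tissues it was lost by Myh4 in 16 of 23 alternatives, Myh8 in 3, Atp2a1 in 2, Chil3 in 1 (only the compared groups, adjusted p = 0.062) and Arg1 in 1 (quantile normalisation, 1.90, adjusted p = 0.0652). Against day 1 it was lost by Gadd45b in 5 of 16 and Il11 in 1. Of 740 list medians under an alternative, 725 moved by less than the spread between arrays. An exact offset, only the compared groups and a robust prior leave a median unchanged by construction, so those pairs were fixed in advance. The spread is the SD of the list mean between arrays, which arrays that stood apart widen. The skeletal muscle median counted as within it, though it went from -1.57 to -0.29 with controls 3 and 4 only. Counts against control that moved by over 1.5 times with quantile normalisation included those of metalloproteinases (7 higher), interferon genes (3), lipid handling (5), heme and iron (5) and myelin (4 lower). With the offset at the low end, 14 myelin, 7 glycinergic and GABAergic and 6 cholesterol synthesis genes were lower, and on the values as deposited 10 myelin, 11 motile cilia and 8 pan-neuronal genes. No paired analysis was possible because the replicate numbers follow accession order and pair nothing. Probes with a wide offset range (myelin, Glra1, Ebf3) allow no firm call against control, and 4 arrays a group limit what small differences can be called.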
